A study of Mus musculus with 2 samples.

Results

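Myelin protein genes were examined in single-nucleus RNA sequencing of mouse thalamus: Mbp, Mobp, Mag, Mog, Cnp, Cldn11, Opalin, Mal and Ermn, 9 of the 32285 gene rows of the count tables, chosen by name. The sham library came from sham-operated mice and the injury library from mice with cortical ablation injury, in which sensory and motor cortex is removed surgically. Each library was 1 pool of nuclei from the thalamus on the side of the operation, from 4 C57BL/6J mice, all females of 3 months, with tissue collected 21 days after surgery. The mice of a pool could not be told apart, so each group had 1 library, no difference had a replicate check and no p-value is given. Intervals are exact, at 95%, and cover counting error only: Poisson for levels, and Clopper-Pearson binomial intervals wherever a share or a ratio between 2 sums is given. The 5 classes of nuclei described below were named from marker genes that included no member, and each name stands for nuclei that resemble that class. Members could be among the 10 leading genes of a cluster, which entered the choice to set a cluster apart.

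Oligodendrocytes wrap axons in compacted membrane, the myelin sheath, which insulates axons and speeds conduction. Mbp encodes myelin basic protein, which holds the cytoplasmic faces of the membrane together, and Mobp encodes another small basic protein of compact myelin. Mag and Mog encode immunoglobulin-like membrane proteins, Mag facing the axon and Mog on the outer surface of the sheath. Cnp encodes a phosphodiesterase of the cytoplasm-filled myelin channels, Cldn11 the claudin of the tight junctions between myelin layers, and Mal a proteolipid of membrane sorting. Opalin encodes an oligodendrocyte membrane glycoprotein and Ermn a cytoskeletal protein of late-stage oligodendrocytes.

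In GENCODE annotation of GRCm38, Mobp lies at chr9:120149707-120181484 (+ strand), Mag at chr7:30899176-30914873 (−), Mog at chr17:37010743-37023398 (−) and Cnp at chr11:100574904-100591729 (+). Cldn11 lies at chr3:31149920-31164324 (+), Opalin at chr19:41061710-41077113 (−), Mal at chr2:127633226-127656695 (−) and Ermn at chr2:58045113-58052864 (−). Counts are over whole genes. Cnp overlaps Dnajc7 and Ermn overlaps Galnt5, both on the other strand. Mobp overlaps the noncoding transcript Gm38642 on its own strand, and on the other strand Mbp overlaps a processed pseudogene and Mog a small RNA gene.

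RefSeq promoters (GRCm38.p6) were found for 8 of the 9 members, all but Mbp, and the 250 bases before the RefSeq start were searched on both strands for 4 motifs. ACAAAG, the core that Sox factors such as Sox10 bind, was present in 16.5% of all 32851 promoters of that length. The forms CTGGCAC and CTGGTAC of the motif bound by Myrf, the factor that drives myelin gene transcription, were in 4.19% and 1.83%, and TATAAA in 12.4%. Mobp held ACAAAG 6 times, and 2 of all 32851 promoters (0.00609%) held it 5 times or more. Mag and Cnp each held 1 ACAAAG and 1 CTGGCAC, the latter beginning 68 bases before the start in Mag and 81 bases before it in Cnp. Mag has 3 RefSeq starts, and the one nearest the annotated gene start was used. At another of them CTGGCAC begins 9 bases before the start, and the window of the remaining one holds neither motif. Opalin held 1 ACAAAG and Mog 1 CTGGTAC. None of these letters was found in the windows of Cldn11, Mal and Ermn, and TATAAA was in none of the 8. The 3 windows with the most matches are shown, since they belong to members at both ends of the range of levels given below. They are written in the direction of transcription and end before the first annotated base of the gene. Capitals mark the motifs, and CTTTGT is ACAAAG on the other strand.
Mobp, chr9:120149492-120149706 (+): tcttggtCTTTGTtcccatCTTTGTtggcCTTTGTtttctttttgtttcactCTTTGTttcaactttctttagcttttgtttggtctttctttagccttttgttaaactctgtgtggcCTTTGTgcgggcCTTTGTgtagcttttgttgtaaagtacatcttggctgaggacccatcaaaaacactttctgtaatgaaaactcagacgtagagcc
Mag, chr7:30914874-30915113 (−): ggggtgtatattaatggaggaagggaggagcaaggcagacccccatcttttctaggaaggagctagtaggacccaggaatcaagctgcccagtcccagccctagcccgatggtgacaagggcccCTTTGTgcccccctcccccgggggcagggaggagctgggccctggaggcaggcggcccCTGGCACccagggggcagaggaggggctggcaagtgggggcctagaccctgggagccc
Cnp, chr11:100574689-100574903 (+): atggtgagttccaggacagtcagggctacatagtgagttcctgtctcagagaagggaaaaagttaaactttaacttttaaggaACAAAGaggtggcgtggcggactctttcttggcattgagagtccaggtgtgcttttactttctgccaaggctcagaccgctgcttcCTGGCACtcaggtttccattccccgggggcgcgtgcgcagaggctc
A match in a window describes its letters and is not evidence of a bound site.

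After filtering, 16373 sham and 21777 injury nuclei were kept, with a median of 7190 and 6810 UMIs (unique molecular identifiers, each standing for 1 captured molecule). Oligodendrocytes were 936 sham nuclei (5.72% of the library, 5.37 to 6.08) and 2175 injury nuclei (9.99%, 9.59 to 10.4), with a median of 1520 and 1615 UMIs. The 16 oligodendrocyte markers that are no members, which served to name the class, summed to 18622 UMIs per 1000000 UMIs of the class (CPM) in sham and 17473 CPM in injury, and none was at 0. Markers of other cells in these nuclei summed to 1338 and 1596 CPM for neurons and 193 and 254 CPM for astrocytes. Neurons were 13802 and 15811 nuclei with medians of 7631 and 7585 UMIs. Barcode sequences found in both libraries numbered 101, and were carried by 22 oligodendrocyte and 151 neuron nuclei. Without these nuclei the log2 ratio of injury over sham for the summed members was 0.04 in oligodendrocytes and 0.76 in neurons, against 0.04 and 0.75 with them.

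To see how strongly each myelin protein gene was represented in oligodendrocytes, UMIs were summed over the nuclei of the class in each library. The CPM values that follow are not corrected for gene length. Mbp had the most UMIs of the members in both libraries, at 4565 CPM in sham (4458 to 4674) and 4914 CPM in injury, and gave 48.3% and 50.5% of all member UMIs. Mobp followed at 1372 and 1648 CPM. Mag stood at 1032 and 894 CPM, and Mog at 999 and 886 CPM. The 2 adhesion molecules were thus close to each other and below Mobp in each library. Mal was measured at 370 and 375 CPM, Opalin at 335 and 303 CPM, and Cldn11 at 331 and 317 CPM. Ermn was lower at 283 and 248 CPM. Cnp was the lowest, with 164 CPM from 250 UMIs in sham and 154 CPM from 582 UMIs in injury. Together the 9 genes gave 9450 CPM in sham and 9739 CPM in injury, or 15.4 and 16.9 UMIs per nucleus.

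**Figure D1:**
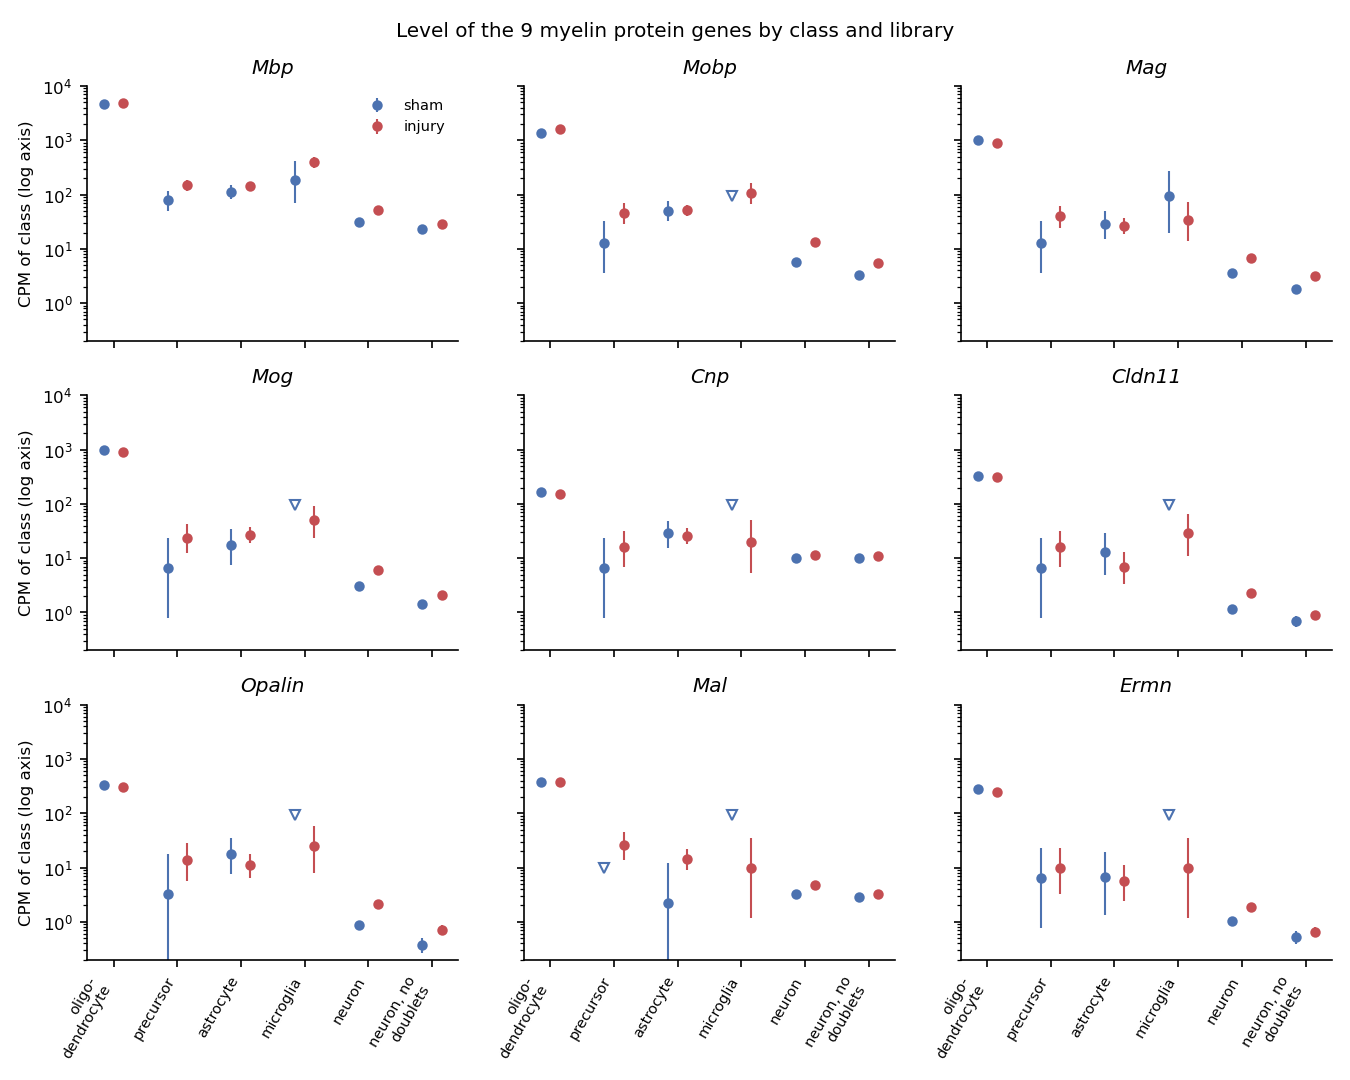
Level of each member (CPM of the class total, log axis) in each class of nuclei, in the sham (blue) and injury (red) library, with exact 95% Poisson intervals. An open triangle marks a class with 0 UMIs at the level that 3 counts would give. Every member was highest in oligodendrocytes, and Cnp showed the smallest distance between oligodendrocytes (164 and 154 CPM) and neurons (10.2 and 11.7 CPM).

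Levels were also set out per length, although counts from the 3′ end of transcripts need not grow with length. Per kilobase of annotated exon, Mog led in sham at 586 CPM per kb and Mbp followed at 539, whereas in injury Mbp led at 580 and Mog followed at 520. Mag stood at 253 and Mobp at 200 CPM per kb in sham, and in injury this pair also changed places, at 219 and 241. The order of the rest was the same in both libraries. Cldn11 had 177 and 170 CPM per exonic kb, Mal 133 and 135, Opalin 114 and 103, and Ermn 77.8 and 68.2. Cnp was last at 45.1 and 42.3. On this scale the counting intervals of the ratio between neighbours excluded 1 at every step in both libraries. Divided by the whole gene span, introns included, Mog (78.9 and 70.0 CPM per kb) and Mag (65.7 and 56.9) led, Mobp (43.2 and 51.8) and Mbp (41.3 and 44.5) followed, and Cnp was again last (9.75 and 9.14). The annotated span of Mbp is 110 kb, against 7.75 kb (Ermn) to 31.8 kb (Mobp) for the other members. Its place on this scale rests on that length. On the span scale Mobp and Mbp in sham, and Cldn11 and Opalin in sham, did not differ beyond counting error. Which scale fits depends on whether intronic reads were counted, which the sources used here do not state.

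Among single nuclei, the summed members had a median of 9326 CPM in sham, with 5580 at the 10th and 13061 at the 90th percentile, and of 9479 CPM in injury (5889 and 13984). Mbp was found in nearly every nucleus. With each nucleus thinned to 1000 UMIs, which left out 170 sham and 379 injury nuclei, Mbp had a UMI in 98.3% of sham and 98.8% of injury oligodendrocytes. Mobp was in 70.8% and 73.4%, Mag in 63.8% and 58.3%, and Mog in 61.0% and 58.0%. The shares for Mal, Opalin, Cldn11 and Ermn lay between 22.8% and 29.3%, and Cnp was in 15.4% and 13.5%. Across thinned nuclei the 36 pairs of members had Pearson correlations from −0.07 to 0.09 in sham and from −0.05 to 0.11 in injury. With nuclei thinned to 2000 UMIs, which kept 237 sham and 697 injury nuclei, they went from −0.07 to 0.26 and from −0.09 to 0.14. The highest was Mbp with Mog in sham (0.26), a pair with 0.002 in injury, and Opalin with Mal had 0.23 in sham and 0.11 in injury. These are weak correlations in sparse counts, given as a description.

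The libraries were then compared to ask whether the level of the members in oligodendrocytes differed after injury. A gene was counted as higher or lower when its log2 ratio of injury over sham was at least 0.25 in size, with an interval that excluded 0, and it had at least 50 UMIs. Mobp was the only member counted as higher, no member was counted as lower, and 8 were neither. Over all 9087 genes tested in oligodendrocytes, 7.47% were counted as higher and 9.28% as lower. The median log2 ratio was −0.09 over the members and −0.03 over all genes tested. The summed members had a log2 ratio of 0.04 (0.02 to 0.07), and without Mbp of −0.02 (−0.06 to 0.02).

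Mobp was higher in injury by a log2 ratio of 0.26 (0.19 to 0.34), and its value lay between 0.20 and 0.36 under the 14 alternatives tried. Among these it dropped below 0.25 when nuclei were thinned to 2000 UMIs (0.21) or 1000 UMIs (0.23), when nuclei were classed by markers alone (0.21) and in clusters G0 and G2 pooled (0.20). In G0 and G2 taken singly, which were not among the 14, Mobp had 0.38 and 0.27. Mbp was higher by 0.11 (0.07 to 0.15), which is below the fold used, and stood at −0.06 when nuclei were classed by markers alone. The log2 ratios of Mag (−0.21, −0.29 to −0.12), Mog (−0.17, −0.26 to −0.08) and Ermn (−0.19, −0.35 to −0.02) were below 0 beyond counting error and short of the fold. With nuclei classed by markers alone, the ratios of Mag (−0.33), Ermn (−0.30), Mog (−0.27) and Cnp (−0.26) were at or past the size of 0.25. So were Mag and Mog when nuclei were thinned to 2000 UMIs (−0.29 for both), where Opalin stood at 0.18, and Cnp when thinned to 1000 UMIs (−0.28). Those of Opalin (−0.14), Cnp (−0.09), Cldn11 (−0.06) and Mal (0.02) had intervals that included 0. Since the class total enters every value, these are differences in share of the RNA counted. Per nucleus the summed members had a log2 ratio of 0.14, Mobp of 0.36, Mbp of 0.20 and Mag of −0.11 (−0.20 to −0.02). The per-nucleus intervals of Mog (−0.08, −0.16 to 0.01) and Ermn (−0.09, −0.26 to 0.07) included 0.

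**Figure D2:**
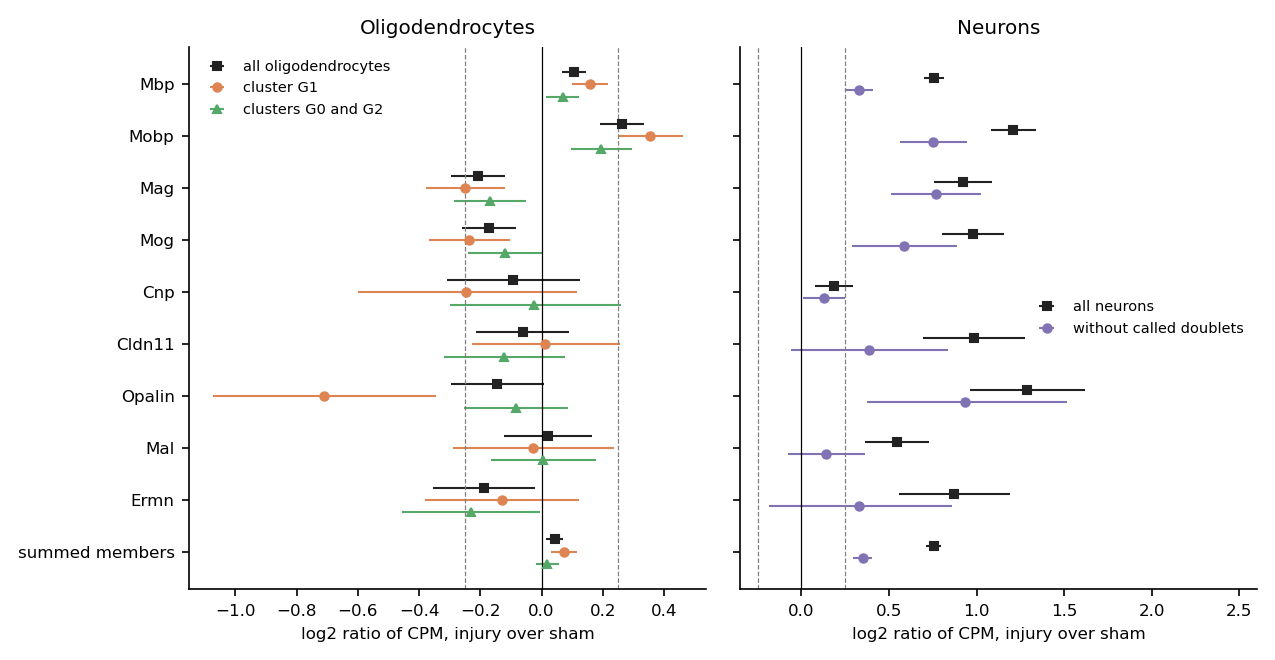
Log2 ratio of CPM, injury over sham (x axis), for each member and for the summed members, in oligodendrocytes (left) and neurons (right), with exact 95% binomial intervals. Dashed lines mark −0.25 and 0.25. In oligodendrocytes most members lie within the dashed lines, with Mobp at 0.26, and Opalin in cluster G1 at −0.71. In neurons all 9 lie above 0, with lower values once called doublets are left out.

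Oligodendrocytes fell into 3 clusters, found with the members kept out of the clustering genes. Cluster G1, led by Anln and Hapln2, held 346 sham and 713 injury nuclei. Clusters G0 (53 and 1317 nuclei) and G2 (537 and 145) carried Il33 and Ptgds and are described together, since they divided by library when the libraries were integrated and did not when they were not. Opalin was measured at 159 CPM in G1 and 478 CPM in G0 and G2 in sham, and at 97.03 and 451 CPM in injury, log2 differences of −1.59 (−1.91 to −1.28) and −2.22 (−2.47 to −1.97). Mal was lower in G1 as well, at 255 against 464 CPM in sham and 250 against 465 CPM in injury, log2 differences of −0.86 and −0.90. In injury, Cnp was also lower in G1, by −0.52 (−0.78 to −0.27), and Mobp higher, by 0.28 (0.21 to 0.35). The summed members were nearly level between the clusters, with log2 differences of −0.03 in sham and 0.02 in injury. Within G1, Opalin was lower in injury by a log2 ratio of −0.71 (−1.07 to −0.34) and Mobp higher by 0.36 (0.25 to 0.46). In G0 and G2 the same ratios were −0.08 (−0.25 to 0.09) for Opalin and 0.20 (0.10 to 0.29) for Mobp with the clusters pooled. Taken singly, Mobp had 0.38 (0.05 to 0.73) in G0 and 0.27 (0.11 to 0.42) in G2, both above the pooled value, and Opalin had 0.43 in G0 and −0.17 in G2, with intervals that included 0. Mog was lower in injury in G0, at −0.41 (−0.74 to −0.06), opposite in direction to Mobp. Cnp had 1.24 (0.01 to 2.88) in G0, where sham held 5 of its UMIs, and Mal had 0.36 (0.10 to 0.62) in G2. The intervals of the remaining members in G0 and in G2 included 0. Most sham nuclei of the pair were in G2 and most injury nuclei in G0. The difference between the clusters in these ratios was not tested.

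A further cluster, G5 (69 sham and 143 injury nuclei), had Prom1 and Bcas1 among its 10 leading genes. It was kept out of the class because these genes included Bcas1, a marker of differentiating oligodendrocytes, and none of the oligodendrocyte markers. Its closest markers were those of oligodendrocytes, at a mean log2 fold of 3.49. Mbp, Mobp and Opalin were also among the 10, so member levels entered this choice. Their higher levels in G5 are not independent of it. The summed members of G5 were higher than in the class at 14176 CPM in sham and 16515 CPM in injury. Mbp stood at 8536 and 9439 CPM there, log2 differences from the class of 0.90 and 0.94. Opalin was higher than in the class by 0.92 and 0.99 on the log2 scale, and Cldn11 by 0.58 and 0.79. Ermn went the other way, at 176 and 149 CPM, lower than in the class by log2 differences of −0.68 and −0.73. Mobp was measured at 1728 CPM in sham and 3072 CPM in injury in G5, a log2 ratio of 0.83 (0.67 to 0.99). With G5 counted among the oligodendrocytes, the log2 ratio of Mobp became 0.36.

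Other genes of the myelin programme were taken as fixed lists and counted in the same way, against 7.47% of the 9087 genes tested in oligodendrocytes counted as higher and 9.28% as lower, and a median log2 ratio of −0.03 over them. With 1 library a group, these counts have no test. Of 20 other myelin protein genes, 2 were counted as higher in injury and 5 as lower, with a median log2 ratio of −0.09. The highest were Nfasc, the neurofascin that anchors paranodal loops (735 and 943 CPM, 0.36), and Pllp, plasmolipin (102 and 129 CPM, 0.34). The lowest were Cryab, a small heat-shock chaperone (157 and 101 CPM, −0.64), and Gpr37, a receptor of maturing oligodendrocytes (157 and 120 CPM, −0.38). Of 12 genes of myelin lipid synthesis, none was counted as higher and 5 as lower, with a median of −0.33. Sqle, the squalene epoxidase of cholesterol synthesis, was lowest (24.3 and 15.1 CPM, −0.69), followed by Elovl1, a fatty acid elongase (32.1 and 20.3 CPM, −0.66). The other lipid genes counted as lower, named after their values were seen, were Scd2 (−0.47), Ugt8a (−0.31) and Aspa (−0.25). Fa2h, which hydroxylates fatty acids of myelin lipids (0.11), and Gal3st1, the sulfatide-forming sulfotransferase (0.03), were the highest. Of 11 transcription factors of the lineage, 1 was counted as higher, Zfp536 (1956 and 2543 CPM, 0.38), and 3 as lower, Olig1 (49.2 and 33.6 CPM, −0.55), Sox10 (266 and 213 CPM, −0.32) and Sox8, named after its value was seen (108 and 87.7 CPM, −0.29). Olig2 had the largest ratio of that list, 0.52, with an interval of −0.07 to 1.16. Among genes of peripheral myelin, Prx and Pmp2 had 0 UMIs in oligodendrocytes of either library, where 3 counts correspond to 1.97 CPM in sham and 0.793 CPM in injury. Pmp22 was measured at 34.1 and 30.1 CPM.

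The member UMIs found in neurons were examined next, and their source was not tested. Neurons carried 60.1 CPM of summed members in sham and 101 CPM in injury, 0.636% and 1.04% of the oligodendrocyte level. Per nucleus this was 0.528 and 0.905 UMIs, and 70.6% and 63.0% of neurons had no member UMI. Mbp led here as well, at 31.2 CPM in sham and 52.7 CPM in injury. Cnp came second in sham at 10.2 CPM, and stood at 11.7 CPM in injury, just below Mobp (5.67 and 13.1 CPM). Mag was measured at 3.53 and 6.69 CPM, Mog at 3.13 and 6.17 CPM, and Mal at 3.23 and 4.71 CPM. Cldn11, Ermn and Opalin were the lowest, with 0.866 to 1.18 CPM in sham and 1.86 to 2.33 CPM in injury. The level in neurons relative to oligodendrocytes was 6.25% and 7.58% for Cnp, 0.874% and 1.26% for Mal and 0.683% and 1.07% for Mbp. For the other 6 members it ranged from 0.259% to 0.414% in sham and from 0.696% to 0.796% in injury.

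Of the 9 members, 8 were counted as higher in neurons of the injury library, none as lower, and Cnp (0.19, 0.08 to 0.29) as neither. Over all 20005 genes tested in neurons, 11.8% were counted as higher and 8.48% as lower. The members' median log2 ratio was 0.92, against 0.03 over all genes, and the summed members had 0.75 (0.71 to 0.80). Opalin (1.29) and Mobp (1.21) had the largest ratios and Mal (0.54) the smallest of the 8. Several quantities moved with this difference. The share of oligodendrocytes was 5.72% in sham and 9.99% in injury. The members' level over the whole library was 199 and 378 CPM, a log2 ratio of 0.93. Called doublets were 10.0% of sham and 14.0% of injury neurons. Doublets were called at a rate set by library size, 13.1% of sham and 17.4% of injury nuclei, so a higher share in injury was built in. The 16 oligodendrocyte markers that are no members summed to 85.1 and 144 CPM in neurons, a log2 ratio of 0.76. The part of each of these in the result was not tested.

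The member UMIs were spread unevenly over the neurons. The 90 sham and 273 injury neurons with 10 or more member UMIs, 0.652% and 1.73% of the neurons, held 26.1% and 42.9% of all member UMIs, and the highest nucleus had 106 and 150. Called doublets held 36.2% of member UMIs in sham and 53.9% in injury. Members were among the genes given to the doublet caller. These shares, and the levels without called doublets, are therefore not independent of the member UMIs of a nucleus. Leaving out called doublets removed a larger share of injury neurons, since the calling rate was set higher for the larger injury library. Without called doublets the summed members were at 43.8 and 55.9 CPM, a log2 ratio of 0.35 (0.30 to 0.40). Ratios were then 0.77 for Mag, 0.75 for Mobp, 0.59 for Mog, 0.93 for Opalin, 0.33 for Mbp and 0.13 for Cnp, all with intervals that excluded 0. The intervals of Cldn11, Mal and Ermn then included 0. The marker genes that are no members had a log2 ratio of 0.34 in the same nuclei.

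**Figure D3:**
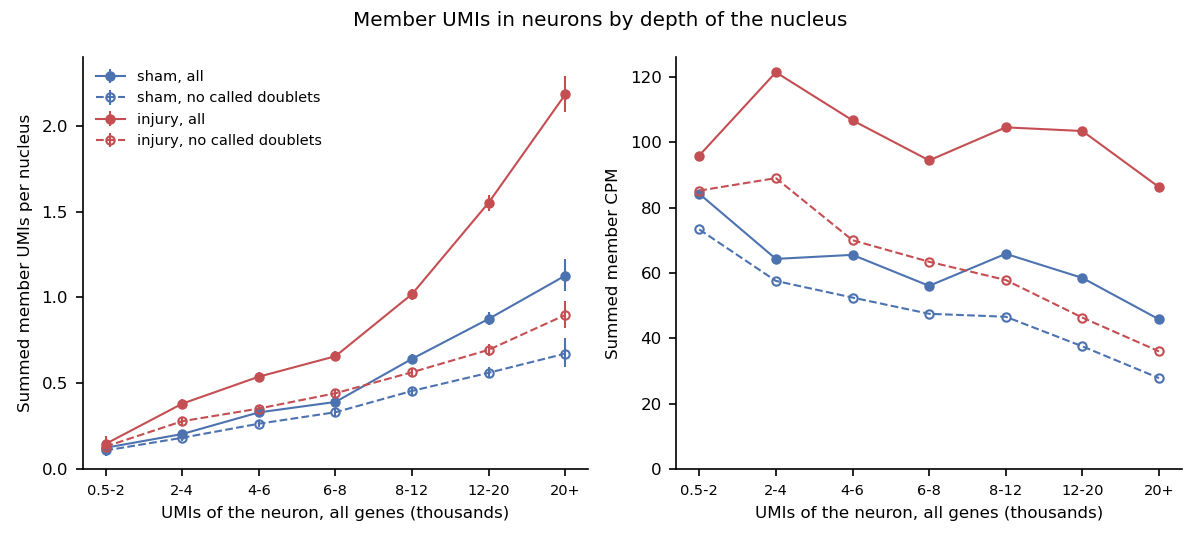
Summed member UMIs per neuron (left, with exact 95% Poisson intervals) and summed member CPM (right) by the total UMIs of the nucleus, for sham (blue) and injury (red), with all neurons (filled) and without called doublets (open). Without called doublets, UMIs per neuron go from 0.108 to 0.673 in sham and from 0.131 to 0.898 in injury from the shallowest to the deepest nuclei, while CPM goes from 73.4 to 27.9 and from 85.2 to 36.0.

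Depth entered these levels. In neurons without called doublets, member UMIs per nucleus went from 0.108 in nuclei of 500 to 2000 total UMIs to 0.673 in those of 20000 or more in sham, and from 0.131 to 0.898 in injury. Member UMIs thus grew with depth, but more slowly than the total. Other classes without myelin showed member UMIs too. Astrocytes had 0.603 and 0.876 member UMIs per nucleus (278 and 311 CPM), oligodendrocyte precursors 0.380 and 1.04 (133 and 342 CPM), and microglia 0.333 and 0.902 (281 and 683 CPM). The sham microglia were only 27 nuclei, of which 15 were called doublets, and 7 members had 0 UMIs in them, where 3 counts correspond to 93.6 CPM. With nuclei thinned to 1000 UMIs, a member UMI was found in 5.11% and 7.97% of neurons, 8.16% and 11.7% of precursors, 12.4% and 16.5% of astrocytes, 16.7% and 29.0% of microglia, and 99.9% and 100% of oligodendrocytes. Unthinned, it was found in 29.4% and 37.0% of neurons, at median depths of 7631 and 7585 UMIs, and in 20.1% and 28.5% of astrocytes, at 1892 and 2549 UMIs.

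The make-up of the member UMIs was compared between neurons and oligodendrocytes. In oligodendrocytes Cnp gave 1.7% of member UMIs in sham and 1.6% in injury, and in neurons without called doublets 22.8% and 19.5%. Set against the UMIs of the 6 members Mobp, Mag, Mog, Cldn11, Opalin and Ermn, a choice made after these values were seen, Cnp had 3.77 and 3.58 UMIs per 100 in oligodendrocytes. It had 123 and 83.8 per 100 in neurons without called doublets, 32.7 and 23.4 times as many, and in all neurons 17.7 and 10.1 times as many. Mbp had 105 and 114 per 100 in oligodendrocytes and 282 and 221 in these neurons, 2.69 and 1.93 times as many, and in all neurons 1.93 and 1.43 times. Mal had 8.502 and 8.73 per 100 in oligodendrocytes and 35.9 and 24.6 in these neurons, 4.22 and 2.82 times as many, and in all neurons 2.47 and 1.67 times. Within the 6, Mobp gave 31.5% and 38.4% in oligodendrocytes and 40.0% and 42.0% in these neurons, Mag 23.7% and 20.8% against 22.8% and 24.2%, and Mog 23.0% and 20.6% against 17.6% and 16.4%. The 95% intervals of Mobp and of Mog did not overlap in either library, and those of Mag overlapped in sham and not in injury. Opalin gave 7.69% (7.06 to 8.36) and 7.05% (6.66 to 7.45) in oligodendrocytes and 4.66% (3.35 to 6.29) and 5.53% (4.44 to 6.80) in these neurons, and the 95% exact binomial intervals did not overlap in sham and did in injury. Cldn11 gave 7.61% and 7.39% against 8.498% and 6.90%, and Ermn 6.50% and 5.78% against 6.40% and 5.01%, with intervals that overlapped in both libraries. Because the 6 were chosen for their low level in neurons, the direction of the ratios of Cnp, Mbp and Mal to the 6 is fixed by the choice. As a share of all member UMIs, Mbp was 48.3% and 50.5% in oligodendrocytes and 52.1% and 51.5% in these neurons. Dnajc7, which overlaps Cnp on the other strand, was at 76.7 and 83.7 CPM in neurons and 132 and 145 CPM in oligodendrocytes. The sources used here do not state whether counting used the strand, so reads of Cnp and Dnajc7 may not be separate. Galnt5, which overlaps Ermn, was at 0.396 and 0.871 CPM in neurons and 170 and 149 CPM in oligodendrocytes.

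**Figure D4:**
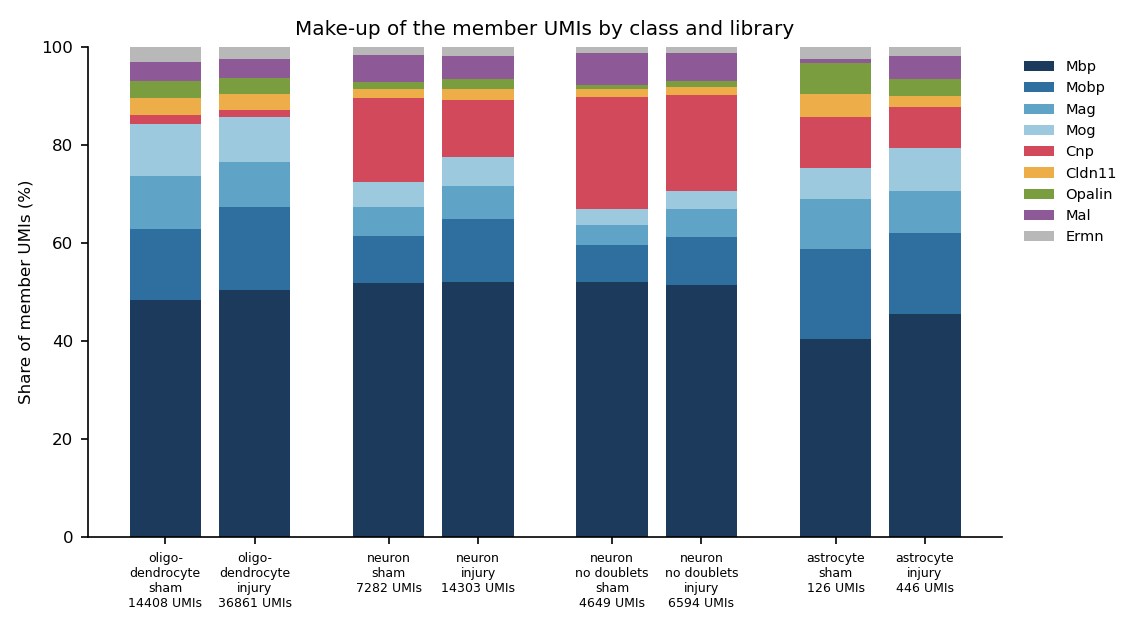
Share of each member among all member UMIs (y axis, %) in oligodendrocytes, neurons, neurons without called doublets and astrocytes, with the number of member UMIs under each bar. Cnp (red) gives under 2% in oligodendrocytes and 22.8% and 19.5% in neurons without called doublets, and Mbp (darkest) gives 48.3% to 52.1% in the oligodendrocyte and neuron bars.

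Neurons formed 18 clusters, and the CPM of the summed members was higher in injury in 18 of 18. The intervals of their UMIs per nucleus were apart in 17. The summed members ranged from 39.4 to 121 CPM over clusters in sham and from 66.1 to 262 CPM in injury. Without called doublets their CPM was higher in injury in 18 of 18 again, with intervals of UMIs per nucleus apart in 9. It then ranged from 24.4 to 65.7 CPM in sham and from 30.9 to 83.8 CPM in injury. Without called doublets Mbp was highest in cluster N6 in both libraries, at 48.8 CPM (44.3 to 53.7) and 60.1 CPM (54.8 to 65.7), where the medians over clusters were 20.7 and 27.6 CPM. The 6 other members were lowest in N6 in sham, at 4.96 CPM. In injury they stood at 10.5 CPM in N6 and were lowest in N24, at 6.81 CPM. Mbp gave 74.3% and 71.7% of member UMIs in N6. Cnp ranged from 6.46 to 14.3 CPM over clusters in sham and from 6.29 to 13.5 CPM in injury. The clusters share a library and differ in depth, so that these values are a description.

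**Figure D5:**
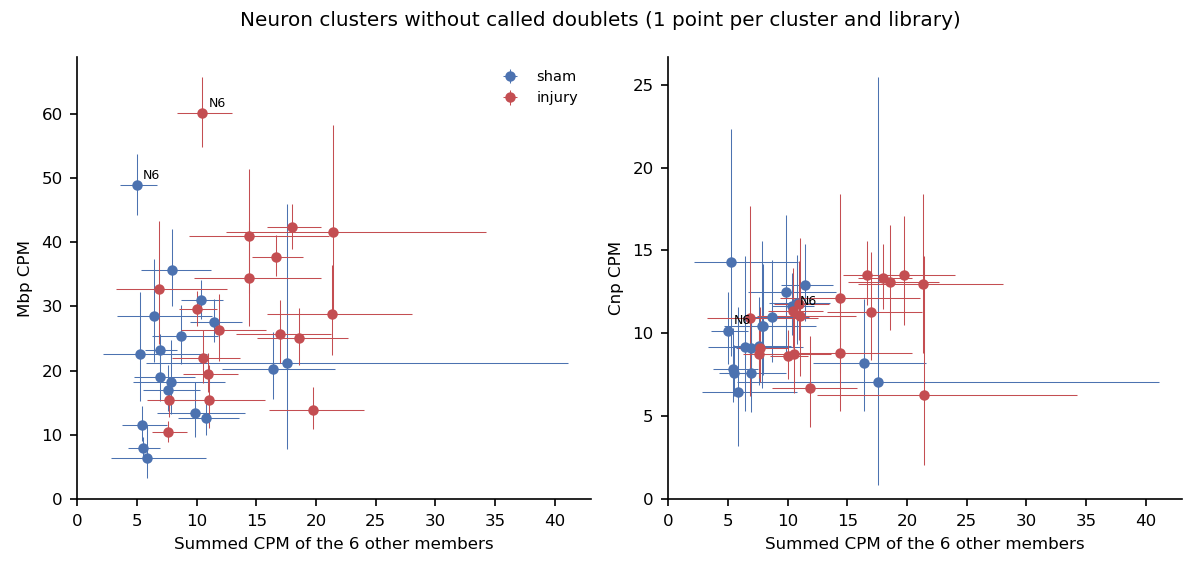
Level of Mbp (left) and Cnp (right) against the summed level of the 6 other members (Mobp, Mag, Mog, Cldn11, Opalin and Ermn) in each of the 18 neuron clusters without called doublets, in CPM with exact 95% Poisson intervals, for sham (blue) and injury (red). Cluster N6 is labelled: it has the highest Mbp level, 48.8 and 60.1 CPM, while its Cnp lies among the other clusters.

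Across the 5 classes and both libraries, 10 profiles in all, the genes most like the mean profile of the members on the scale of log2(CPM + 1) were Insc, A230001M10Rik, AC122117.2, Apod and Tnni1, with Pearson correlations of 0.995, 0.992, 0.987, 0.986 and 0.985. The 10 profiles share 2 libraries, and only genes with at least 200 UMIs in oligodendrocytes entered. All 5 genes were at 0 CPM in sham microglia, where 3 counts correspond to 93.6 CPM, so the order rests in part on values below that level. The members' own correlations with their mean profile went from 0.837 (Mag) to 0.992 (Mog). Apod, the lipid carrier apolipoprotein D, was measured at 537 and 606 CPM in oligodendrocytes and 3.78 and 6.58 CPM in neurons. Insc, a scaffold of cell polarity, was measured at 198 and 216 CPM in oligodendrocytes and 1.09 and 1.83 CPM in neurons, and A230001M10Rik at 670 and 835 CPM against 1.42 and 4.34 CPM.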

How the data were processed

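Nuclei were stained, sorted and made into droplet-based 3′ libraries by the study. The authors produced the deposited UMI counts per gene and barcode with bcl2fastq and Cell Ranger 6.0.2 on GRCm38 (mm10), with Seurat 4.0 downstream, and did not normalize them. Whether intronic reads or strand entered the counting is not given in the sources used here. The libraries held 137850696 (sham) and 180106314 (injury) UMIs. Of 32285 gene rows, 32158 took a symbol from GENCODE annotation.

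Nuclei with over 2% mitochondrial UMIs, under 200 or over 7500 genes were left out, following the study's filter. Mitochondrial share excluded 9 barcodes in sham and 30 in injury, and the upper limit on genes 8 and 21. Scrublet (scanpy 1.11.5) marked 2179 and 3871 nuclei as doublets at 0.8% per 1000 nuclei, and these were kept. The libraries were integrated with Seurat 5.3.0 (R 4.3.3) on 1978 variable genes, members left out, with 30 components and a resolution of 0.5. Clusters were named from markers, thresholds being set after the data were seen: a mean marker log2 fold of at least 3 for a glial class, a largest glial fold under 1.5 for neurons, at least 3 detected markers, and at least 50 nuclei per library for a neuron cluster. Clusters with over 50% doublets were set apart as mixed (762 and 1354 nuclei). Names were rebuilt, so differences from the study may come from the naming.

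UMIs were summed per class and library and scaled to CPM (numpy 2.4.6, scipy 1.17.1). The ratio and its interval were tried on simulated independent Poisson counts, the form that the intervals assume. Counts that gather in few nuclei, as the member UMIs do in neurons, were not simulated. Named genes were the 9 members, the 2 highest and 2 lowest log2 ratios of each list among genes with at least 50 UMIs, and the 5 genes most like the members. A listed gene is not reported here. Members and lists were chosen with earlier results of these data known. TMM factors came from edgeR 4.0.16. Other alternatives concerned doublets, integration, resolution, class assignment, depth and free RNA.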

Additional observations from a re-analysis of the deposited data

Results flagged for a closer look

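Member UMIs were also found in nuclei that entered no comparison. Cluster N26 (61 sham and 189 injury nuclei), with oligodendrocyte markers among its leading genes, was set apart as mixed, with 99.6% called doublets. It had 2069 CPM of summed members in sham and 2156 CPM in injury, and its nuclei are not in the neuron levels. Cluster N21 (3 sham and 438 injury nuclei) had 195 CPM of summed members in the injury library, and cluster G6 (0 sham and 196 injury nuclei) had 254 CPM there, each above the 60.1 CPM of sham neurons. Neurons of the injury library had 101 CPM. With called doublets included, the values of N21 and G6 lie within the 66.1 to 262 CPM of the injury neuron clusters. Without called doublets N21 had 107 CPM, above the 30.9 to 83.8 CPM of those clusters counted in the same way. Neither N21 nor G6 held enough sham nuclei for a comparison of the libraries. The part of depth, doublets or free RNA in the levels of these clusters was not tested.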

How the results depend on the processing

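No paired analysis was possible because sham and injury had 1 library each, and leaving out a replicate was not possible for the same reason. Of 341 values recomputed under the alternatives, 240 stayed within the counting interval of the value reported, 101 left it, and none of the values past the fold changed direction. The log2 ratio of injury over sham for the summed members in oligodendrocytes (0.04) was 0.074 with TMM factors, 0.075 in cluster G1 alone, −0.080 with classes set by markers and no clustering, and −0.018 without Mbp. The median over members stayed between −0.24 and −0.06. In neurons the log2 ratio of injury over sham for the summed members (0.75) was 0.43 with classes by markers. That set held all nuclei with none of the oligodendrocyte markers, 10128 in sham and 10815 in injury, whatever their type. Its member level thus depends in part on the choice of nuclei. In neurons the ratio was 0.35 without called doublets, 0.82 when thinned to 2000 or 1000 UMIs, 0.85 without Cnp and 0.29 without neurons of more than 2 member UMIs. That limit, set from the 95th percentile of member UMIs in each library, kept 13486 of 13802 sham and 15036 of 15811 injury neurons, so that it removed more of the injury neurons and lowers their level by construction. The log2 ratio of neurons to oligodendrocytes was −7.30 in sham and −6.59 in injury. In sham it was −7.24 with TMM factors and with the mean of single-nucleus CPM, −7.75 without called doublets, −6.98 with classes by markers as described above, −7.25 thinned to 1000 UMIs and −7.95 without neurons of more than 2 member UMIs. In injury the values were −6.66, −6.54, −7.45, −6.46, −6.49 and −7.70 in the same order, and −6.50 when thinned to 2000 UMIs. The share of neurons with a member UMI (29.4% and 37.0%) was 9.32% and 13.6% at 2000 UMIs and 5.11% and 7.97% at 1000, where fewer UMIs per nucleus give fewer detections. Genes counted as lower in oligodendrocytes were 843, and 486 with a minimum of 200 UMIs, which tests fewer genes. Thinning to 1000 UMIs, the subsets of clusters, the limit of 2 member UMIs and the sums without Mbp or Cnp were chosen after seeing the data, and causes of the other moves were not tested. With 1 library per group, neither the spread between mice nor the batch of a library can be told apart from injury. Clusters N25 (0 sham and 279 injury nuclei), N21 (3 and 438), G6 (0 and 196) and G9 (0 and 92) came nearly all from the injury library. Whether the dissected tissue differed between the libraries was not tested, and such a difference could not be told apart from injury either. In oligodendrocytes Cnp rests on the fewest UMIs, 250 and 582.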
